A study of Mus musculus with 5 samples.

Results

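Interleukin receptor genes were followed in RNA from sorted dendritic cells of the mouse thymus. The genes were chosen by symbol alone: every row of the count table whose symbol was Il, then digits, then r, leaving out Il1rn, which encodes a secreted antagonist. This gave 37 genes of 18051 in the table, and all 37 had at least 1 count. After a filter on low counts 30 of them were tested, and the other 7 are described by their counts. The irradiated group was C57BL/6J mice, 6 to 8 weeks old, harvested 4 days after total body irradiation (TBI), with 3 libraries. The untreated group was mice of the same strain and age, with 2 libraries. In both groups thymi were digested and pooled, and cells were sorted as CD45+, MHC class II+ and CD11c+. Whether each replicate was a pool of its own is not stated in the labels, so p-values measure only the spread between these libraries, which may be technical.

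Interleukin receptors are built from a few chains each. A chain that binds 1 cytokine usually pairs with a chain shared by several receptors, so the level of a single chain does not give the level of a working receptor. Chains of the class I and II cytokine receptor families signal through JAK kinases and STAT factors, those of the interleukin-1 family through the adaptor MyD88, and interleukin-17 receptors through the adaptor Act1. Dendritic cells of the thymus present antigen to developing T cells, and several of these receptors are better known from T cells, natural killer cells and innate lymphoid cells.

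Library totals ran from 7549053 to 8428589 counts in TBI libraries and from 7227000 to 7346330 in untreated libraries, so that 1 count equalled 0.123 to 0.145 CPM, the counts scaled to the TMM-adjusted size of the library. On the second principal component, with 14.9% of the variance, TBI replicate 1 lay at -48.8 and TBI replicates 2 and 3 at 34.5 and 21.6. Markers of several cell types differed between the groups. Of 15 macrophage markers 14 were higher and 0 lower in TBI libraries, with a summed level of 50685 to 56331 CPM in TBI libraries and 5075 to 6191 CPM in untreated libraries. Of 12 conventional dendritic cell markers 1 was higher and 8 were lower, with 2097 to 2321 CPM in TBI libraries and 4430.1 to 4504 CPM in untreated libraries. Of 10 plasmacytoid dendritic cell markers 0 were higher and 9 were lower. No marker of these 3 lists was at 0 counts throughout a group. The same held for the natural killer and T cell lists given below. The presence of counts therefore does not set the dendritic cell label apart. In sorted bulk RNA, fewer cells of a type and less RNA per cell cannot be told apart, and this holds for every gene below.

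As a set, interleukin receptor genes took a larger part of the counts after irradiation. They held 0.287%, 0.306% and 0.347% of all counts in the 3 TBI libraries, against 0.211% and 0.201% in the untreated libraries. The groups did not overlap, and counting error was smaller than the gap. The lowest 95% Wilson bound in TBI libraries was 0.283% and the highest in untreated libraries 0.214%. These bounds leave out the spread between libraries, and the intervals of the 3 TBI libraries did not overlap each other either. Of the 30 tested genes 14 were higher and 2 were lower in TBI libraries at an adjusted p of 0.05 (edgeR quasi-likelihood test, adjusted over 12046 genes), or 53.3% called, where 23.1% of all tested genes were called. By direction, 46.7% of the tested receptor genes were higher and 6.67% lower, beside 13.3% and 9.79% of all tested genes. The median log2 fold change was 0.90 over the 30 tested receptor genes and -0.01 over all tested genes. For 21 of the 30 the groups did not overlap, 15 with TBI above and 6 with TBI below, a share of 70.0%, beside 56.1% of all tested genes. Of the tested receptor genes 4 (Il17rc, Il17re, Il18r1 and Il20rb) reached the CPM of the filter in fewer than 2 libraries of a group, and 1 of these, Il18r1, was called. Without TBI replicate 1 the lower genes numbered 4, with Il17ra and Il5ra added. Without untreated replicate 2 the higher genes numbered 8, and the lower genes numbered 1 without untreated replicate 1 or without untreated replicate 2. With either of these left out, calls over all genes also dropped, to 815 and 810 higher genes instead of 1599.

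**Figure D1:**
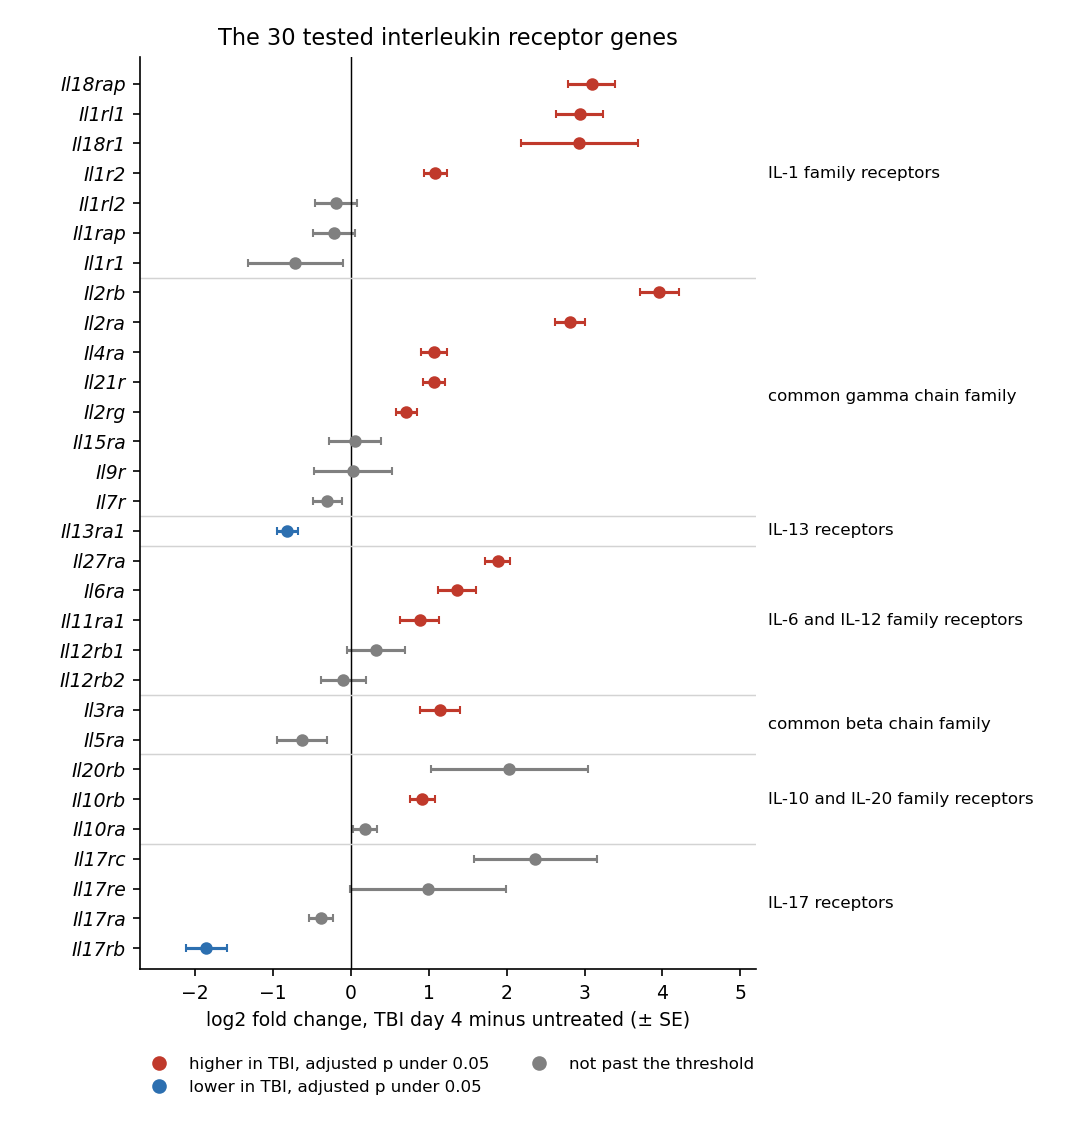
Log2 fold changes of the 30 tested interleukin receptor genes, TBI day 4 minus untreated, with their standard errors, grouped by receptor family from top to bottom. Red points (14 genes) were higher and blue points (2 genes) lower in TBI libraries at an adjusted p of 0.05, and grey points did not pass; Il2rb, at 3.96, lies farthest to the right and Il17rb, at -1.85, farthest to the left.

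The interleukin-1 receptor family held 3 of the largest rises, those of Il18rap, Il1rl1 and Il18r1, close to that of Il2ra within their standard errors. This family has 8 members here, of which 7 were tested, 4 were higher (Il18rap, Il1rl1, Il18r1 and Il1r2), 0 were lower and 3 did not pass. In GRCm38, the build also called mm10, 6 of them lie on the plus strand of chromosome 1 between positions 40074079 and 40551705, in the order Il1r2, Il1r1, Il1rl2, Il1rl1, Il18r1 and Il18rap. The stretch of 3 neighbours at the downstream end, Il1rl1, Il18r1 and Il18rap, was higher together, with log2 fold changes of 2.94, 2.93 and 3.09. Upstream of them, Il1r2 was higher and Il1r1 and Il1rl2 did not pass.

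Promoter windows of the cluster are shown because neighbouring genes in it moved together while others between them did not pass. Each runs from 250 bases before to 50 bases after a RefSeq transcription start (GRCm38.p6, plus strand). The most upstream start that the RefSeq table lists for each gene is used, and for Il1rl1, which has a distal and a proximal promoter, both starts are given. The start of Il1r2 listed there lies 12014 bases downstream of the gene's annotated start in GENCODE. The first window of Il18r1 overlaps the end of Il1rl1, and the windows of Il18r1 are not shown. Capitals mark matches on either strand to TTCNNNGAA, the core bound by STAT dimers, to TGANTCA, the AP-1 core, or to TGTGGT, the RUNX core.
Il1r2, chr1:40085843-40086142: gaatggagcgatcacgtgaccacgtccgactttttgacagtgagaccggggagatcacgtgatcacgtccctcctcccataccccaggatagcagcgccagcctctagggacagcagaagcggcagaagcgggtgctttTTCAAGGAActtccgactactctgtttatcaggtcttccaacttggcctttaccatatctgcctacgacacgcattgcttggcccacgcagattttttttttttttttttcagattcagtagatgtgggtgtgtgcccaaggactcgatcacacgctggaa
Il1r1, chr1:40224830-40225129: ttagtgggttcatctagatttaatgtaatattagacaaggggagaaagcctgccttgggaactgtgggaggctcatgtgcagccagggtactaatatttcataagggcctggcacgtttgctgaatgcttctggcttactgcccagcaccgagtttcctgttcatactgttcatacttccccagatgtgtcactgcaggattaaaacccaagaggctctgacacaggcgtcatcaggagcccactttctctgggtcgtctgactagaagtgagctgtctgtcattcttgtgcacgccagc
Il1rl2, chr1:40324339-40324638: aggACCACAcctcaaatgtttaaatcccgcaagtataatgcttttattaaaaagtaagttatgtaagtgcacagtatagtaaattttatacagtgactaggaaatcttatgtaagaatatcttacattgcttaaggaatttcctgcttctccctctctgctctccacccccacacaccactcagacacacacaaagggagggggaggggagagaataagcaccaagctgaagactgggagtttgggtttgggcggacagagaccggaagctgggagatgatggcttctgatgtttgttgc
Il1rl1 distal, chr1:40429320-40429619: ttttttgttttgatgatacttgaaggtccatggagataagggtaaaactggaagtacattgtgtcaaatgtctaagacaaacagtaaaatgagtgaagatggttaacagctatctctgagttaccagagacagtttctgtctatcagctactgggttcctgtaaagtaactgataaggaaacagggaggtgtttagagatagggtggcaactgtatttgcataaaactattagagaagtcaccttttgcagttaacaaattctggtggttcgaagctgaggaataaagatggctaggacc
Il1rl1 proximal, chr1:40439379-40439678: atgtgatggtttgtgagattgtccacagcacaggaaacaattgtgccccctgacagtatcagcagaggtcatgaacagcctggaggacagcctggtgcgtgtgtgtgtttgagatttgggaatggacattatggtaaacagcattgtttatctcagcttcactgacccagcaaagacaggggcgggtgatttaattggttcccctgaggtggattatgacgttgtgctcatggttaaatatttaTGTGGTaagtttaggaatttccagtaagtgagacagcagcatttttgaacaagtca
Il18rap, chr1:40515112-40515411: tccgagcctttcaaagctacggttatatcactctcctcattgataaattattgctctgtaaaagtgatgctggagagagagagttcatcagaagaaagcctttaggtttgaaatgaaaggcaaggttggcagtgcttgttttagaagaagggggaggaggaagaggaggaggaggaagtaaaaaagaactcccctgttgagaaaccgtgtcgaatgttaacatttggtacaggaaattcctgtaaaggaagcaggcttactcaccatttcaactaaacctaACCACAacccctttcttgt

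The STAT core was present in the Il1r2 window, and in 8.30% of 32851 mouse promoter windows of the same length. The RUNX core was present in the windows of Il1rl2, the proximal start of Il1rl1 and Il18rap, and in 16.8% of all windows. The AP-1 core was in none of the windows shown and in 7.81% of all windows. Of the 3 windows listed for Il18r1, the first held no match, the second held 1 RUNX core and the third 2 STAT cores. Over the 36 windows listed for 30 of the receptor genes, 5 held the STAT core, 9 the RUNX core and 5 the AP-1 core. A match describes letters only.

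Il1rl1 encodes ST2, the receptor chain that binds interleukin-33. It had 22.7, 25.95 and 33.4 CPM in TBI libraries, against 3.09 and 4.05 CPM in untreated libraries. Every TBI library lay above both untreated libraries, with TBI replicate 3 the highest. The log2 fold change was 2.94 ± 0.30 (SE; edgeR adjusted p = 2.42e-04), and it was 2.77 without TBI replicate 3. ST2 is well known from mast cells, and TBI replicate 3 differed from the other libraries in mast cell transcripts. Cpa3 had 36, 27 and 1112 counts in TBI libraries and 53 and 21 in untreated libraries, Tpsb2 had 0, 4 and 1048 against 0 and 0, and Cma1 had 13, 1 and 1006 against 0 and 7. The 10 mast cell and basophil markers summed to 65.3, 138 and 560.0 CPM in TBI libraries and 285 and 208 CPM in untreated libraries. Of 6 tested 0 were higher and 1 (Kit) was lower, with Mcpt8 and Prss34 at 0 in the TBI group and Fcer1a and Tpsb2 at 0 in the untreated group. In TBI replicates 1 and 2, Il1rl1 was above both untreated libraries, and Cpa3, Tpsb2 and Cma1 were at most 36 counts. The part of mast cells in the Il1rl1 values was not tested in any library.

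Il18rap and Il18r1 encode the accessory and the binding chain of the interleukin-18 receptor. Il18rap had 17.8, 24.3 and 22.1 CPM in TBI libraries, against 2.34 and 2.65 CPM in untreated libraries. These groups were far apart relative to the spread within each, with a log2 fold change of 3.09 ± 0.30 (edgeR adjusted p = 1.75e-04). Il18r1 had 56, 75 and 75 counts in TBI libraries, against 18 and 1 counts in untreated libraries. The untreated libraries differed from each other, although both lay below all TBI libraries. They also differed in transcripts of granulocytes: the basophil genes Prss34 and Mcpt8 had 548 and 190 counts in untreated replicate 1 and 0 in untreated replicate 2, and the neutrophil precursor genes Mpo and Elane had 67 and 0 counts in untreated replicate 1 and 872 and 216 in untreated replicate 2. Of 10 tested neutrophil markers 3 were higher and 1 (Mpo) was lower, with a summed level of 509.9 to 732 CPM in TBI libraries and 60.3 and 402 CPM in untreated libraries, and with Mpo and Elane at 0 in the TBI group. The part of these transcripts in the Il18r1 counts was not tested. The log2 fold change of Il18r1 was 2.93 ± 0.75 (edgeR adjusted p = 0.0234), and it was 6.00 without untreated replicate 1 and 2.03 without untreated replicate 2. Il18r1 was not called without TBI replicate 2 (adjusted p = 0.0621), TBI replicate 3 (0.0651) or untreated replicate 2 (0.0618), in a range of 7.96e-04 to 0.0651 over all alternatives. The annotated end of Il1rl1 and start of Il18r1 are 136 bases apart on the same strand.

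Il1r2 encodes the decoy receptor for interleukin-1, which binds the cytokine and lacks the signalling domain. It had 185, 161 and 155 CPM in TBI libraries, against 80.0 and 77.2 CPM in untreated libraries. The groups did not overlap, and the log2 fold change was 1.09 ± 0.14 (edgeR adjusted p = 0.00102). Il1r1, the signalling receptor for the same ligands, was low, with 1.59, 5.82 and 2.22 CPM in TBI libraries and 6.54 and 4.05 CPM in untreated libraries. Its groups overlapped and its log2 fold change was -0.71 ± 0.60 (edgeR adjusted p = 0.443). Per kilobase of exon, the ratio of Il1r2 to Il1r1 was 388, 92.0 and 233 in TBI libraries and 40.8 and 63.7 in untreated libraries, so the decoy transcript was the more abundant in every library. The ratio itself was not tested, and it rests on 11 to 53 counts of Il1r1 per library.

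The remaining members of the family did not pass. Il1rap, the accessory chain shared by the receptors for interleukin-1, interleukin-33 and interleukin-36, averaged 19.3 ± 5.71 CPM in TBI libraries and 22.4 ± 1.12 CPM in untreated libraries (SD, n = 3 and n = 2). Its log2 fold change was -0.21 ± 0.27 (edgeR adjusted p = 0.621). Per kilobase of exon, Il1rl1 stood at 2.64, 1.68 and 3.01 times Il1rap in TBI libraries and at 0.219 and 0.308 times in untreated libraries. The 2 chains of the interleukin-33 receptor thus changed order between the groups, a difference that was not tested as such. Il1rl2, the interleukin-36 receptor, averaged 8.50 ± 0.592 CPM in TBI libraries and 9.74 ± 0.363 CPM in untreated libraries (-0.20 ± 0.27, edgeR adjusted p = 0.647). Il1rapl1, known from neuronal synapses, had 0, 3 and 3 counts in TBI libraries and 0 in both untreated libraries and was not tested.

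**Figure D2:**
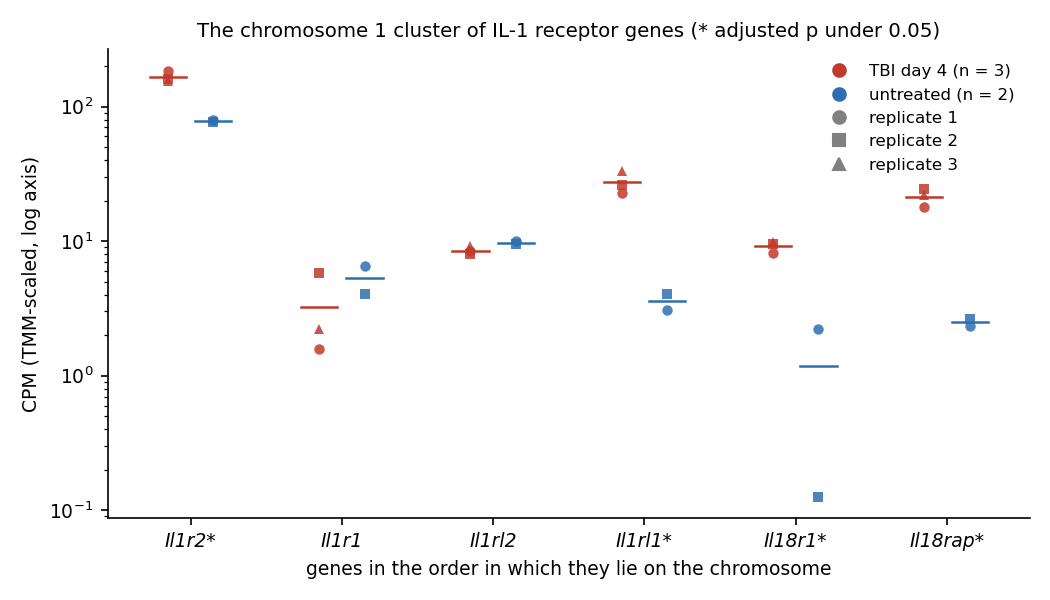
CPM (log axis) of the 6 interleukin-1 receptor genes of chromosome 1, in the order in which they lie, in TBI libraries (red) and untreated libraries (blue); each symbol is a replicate and each bar a group mean. Il1rl1, Il18r1 and Il18rap at the right were higher in all TBI libraries, Il1r2 at the left was higher by 1.09 on the log2 scale, and Il1r1 and Il1rl2 did not pass.

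The common gamma chain family held the largest rise of all receptor genes. Receptors of this family share the chain encoded by Il2rg, and they bind interleukins 2, 4, 7, 9, 15 and 21. All 8 members were tested: 5 were higher (Il2rb, Il2ra, Il4ra, Il21r and Il2rg), 0 were lower and 3 did not pass.

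Il2rb encodes the beta chain shared by the receptors for interleukin-2 and interleukin-15. It had 346, 358 and 546 CPM in TBI libraries, against 26.04 and 27.6 CPM in untreated libraries. The lowest TBI library was far above both untreated libraries, and TBI replicate 3 was the highest. The log2 fold change was 3.96 ± 0.25, or 15.5-fold (edgeR adjusted p = 2.18e-05), and it lay between 3.71 and 4.08 over all alternatives. Among the summed CPM of all 37 receptor genes, Il2rb made up 11.1%, 10.96% and 15.2% in TBI libraries and 1.36% and 1.501% in untreated libraries. Per kilobase of exon it ranked 2 of 37 in TBI libraries, at 97.2 ± 26.2 CPM per kilobase, and 12 of 37 in untreated libraries, at 6.25 ± 0.251 CPM per kilobase. In TBI libraries its neighbours in this order, Il21r at 90.4 ± 9.58 and Il1r2 at 87.5 ± 8.41 CPM per kilobase, lay within its spread.

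Il2ra encodes CD25, the chain that gives the interleukin-2 receptor its high affinity. It had 78.0, 96.3 and 88.7 CPM in TBI libraries, against 12.6 and 12.3 CPM in untreated libraries. The groups did not overlap, and the log2 fold change was 2.82 ± 0.19, or 7.05-fold (edgeR adjusted p = 2.74e-05). Il2rg, the common gamma chain, ranked 1 of 37 per kilobase in both groups, with 930.3, 749 and 795 CPM in TBI libraries and 527 and 479.7 CPM in untreated libraries. Every TBI library was above both untreated libraries, with a log2 fold change of 0.71 ± 0.14 (edgeR adjusted p = 0.00674). Il2rg was not called without untreated replicate 2 (adjusted p = 0.0932), in a range of 3.29e-05 to 0.0932 over all alternatives. Per kilobase of exon, Il2rb stood at 0.207, 0.266 and 0.383 times Il2rg in TBI libraries and at 0.0275 and 0.0320 times in untreated libraries.

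Il15ra encodes the chain with which dendritic cells hold interleukin-15 on their surface for presentation to cells that carry Il2rb and Il2rg. It had 8.53, 7.09 and 7.84 CPM in TBI libraries and 9.38 and 5.69 CPM in untreated libraries, with a log2 fold change of 0.05 ± 0.34 (edgeR adjusted p = 0.928), and the groups overlapped. Il15ra lies next to Il2ra on chromosome 2 among the 37 genes, from 11705290 to 11734317, while Il2ra runs from 11642807 to 11693193.

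Il4ra (125552120 to 125579474) and Il21r (125603429 to 125633570) follow each other among these genes on chromosome 7, and both were higher. Il4ra, the chain that binds interleukin-4, had 368, 505 and 500.1 CPM in TBI libraries, against 213 and 223 CPM in untreated libraries, with a log2 fold change of 1.07 ± 0.17 (edgeR adjusted p = 0.00247). Il21r, the chain that binds interleukin-21, had 265, 310.0 and 326 CPM in TBI libraries, against 149.9 and 137 CPM in untreated libraries, with a log2 fold change of 1.07 ± 0.15 (edgeR adjusted p = 0.00115). Neither gene's groups overlapped, and TBI replicate 1 was the lowest TBI library for both.

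The other chains of the family did not pass. Il7r, which pairs with Il2rg in the receptor for interleukin-7 and with Crlf2 in the receptor for the epithelial cytokine TSLP, had 63.2, 49.1 and 70.5 CPM in TBI libraries and 77.0 and 73.2 CPM in untreated libraries. All TBI libraries were below the untreated ones, and the log2 fold change was -0.30 ± 0.19 (edgeR adjusted p = 0.286). Il9r averaged 4.11 ± 1.25 CPM in TBI libraries and 4.04 ± 1.96 CPM in untreated libraries (SD, n = 3 and n = 2), with groups that overlapped.

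Marker genes of lymphoid cells that carry these chains also differed. Of 15 natural killer and innate lymphoid cell markers 11 were higher and 1 was lower, with a summed level of 1450, 1195 and 1407 CPM in TBI libraries 1, 2 and 3 and 251 CPM in both untreated libraries, and none of the 15 was at 0 throughout a group. Among them Ncr1 (5.30 ± 0.57), Klrb1c (4.26 ± 0.43), Rora (2.22 ± 0.24) and Areg (2.92 ± 0.39) were higher. Of 16 tested T cell markers 3 were higher (Cd3g, Foxp3 and Ctla4) and 7 were lower (Rag1, Cd8a, Cd4, Cd8b1, Cd5, Themis and Bcl11b), with a summed level of 1718 to 1893 CPM in TBI libraries and 2606 to 2920 CPM in untreated libraries. Rag1, a recombinase gene of developing lymphocytes, had -3.77 ± 0.77 and Cd8a, a co-receptor chain, -2.54 ± 0.23. Foxp3, the transcription factor of regulatory T cells, had 37, 30 and 49 counts in TBI libraries and 14 and 8 counts in untreated libraries. Cd3e, a T cell receptor complex chain, averaged 187 ± 28.7 CPM in TBI libraries and 186 ± 28.4 CPM in untreated libraries. Of 11 tested B cell and plasma cell markers 8 were higher, 1 (Cr2) was lower and 2 (Blk and Fcer2a) did not pass, with a summed level of 1918, 678 and 961 CPM in TBI libraries and 169 and 149 CPM in untreated libraries, and Pax5 was at 0 in the untreated group. The antibody joining chain Jchain alone made up 1404, 147 and 577 CPM of these sums in TBI libraries and 32.6 and 34.5 CPM in untreated libraries. The part of these cells in the receptor values was not tested.

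**Figure D3:**
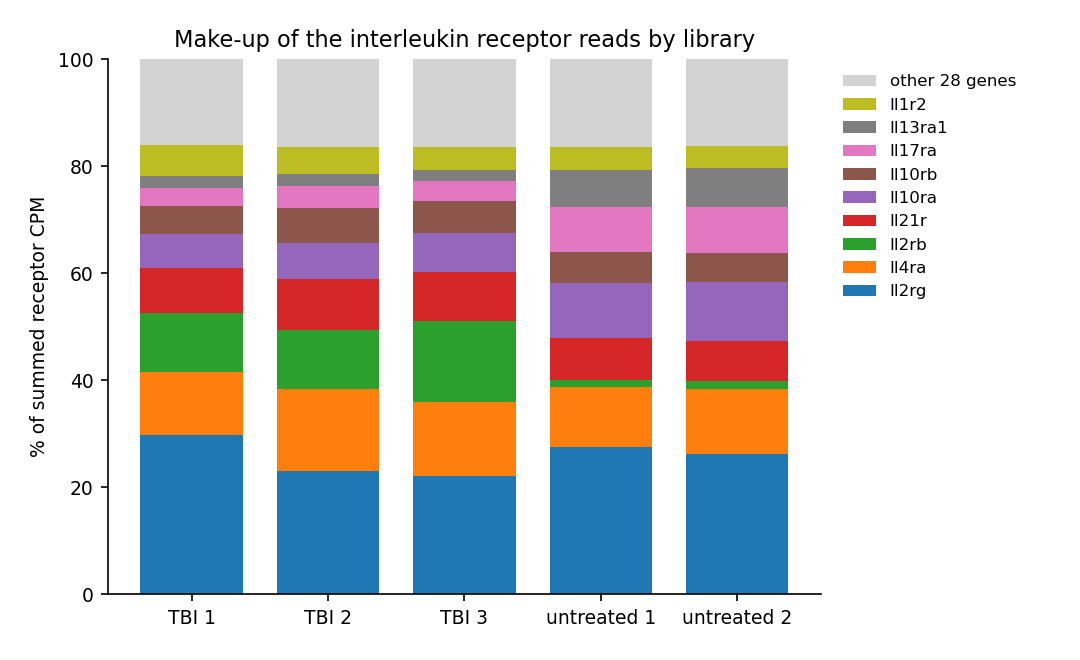
Share of the summed CPM of all 37 interleukin receptor genes taken by the 9 genes shown and by the other 28, as stacked bars in percent, for each library. Il2rb (green) takes 11.1%, 10.96% and 15.2% in the TBI bars at the left and 1.36% and 1.501% in the untreated bars at the right, while Il13ra1 and Il17ra are narrower in the TBI bars.

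Il13ra1 was lower where Il4ra was higher. Il13ra1, which joins Il4ra to form the receptor that takes both interleukin-4 and interleukin-13, had 70.2, 77.6 and 78.5 CPM in TBI libraries, against 132 and 133 CPM in untreated libraries. Replicates were close within each group and the groups did not overlap, with a log2 fold change of -0.81 ± 0.13 (edgeR adjusted p = 0.00318). Il13ra1 was not called without untreated replicate 1 (adjusted p = 0.0548) or untreated replicate 2 (0.0590), in a range of 4.47e-06 to 0.0590 over all alternatives. Per kilobase of exon, Il13ra1 stood at 0.309, 0.249 and 0.254 times Il4ra in TBI libraries and at 1.001 and 0.964 times in untreated libraries. Il13ra2, a decoy for interleukin-13, had 0 counts in all TBI libraries and 1 and 0 counts in untreated libraries, too few to compare.

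Among receptors of the interleukin-6 and interleukin-12 family, 3 of 5 tested members were higher (Il27ra, Il6ra and Il11ra1), 0 were lower and 2 did not pass. Il27ra, which pairs with Il6st to bind interleukin-27, had 102, 94.8 and 107 CPM in TBI libraries, against 28.4 and 26.3 CPM in untreated libraries. The groups were far apart with little spread in either, and the log2 fold change was 1.89 ± 0.16, or 3.70-fold (edgeR adjusted p = 9.25e-05). Il6ra, the chain that binds interleukin-6, had 54.5, 77.9 and 90.8 CPM in TBI libraries, against 31.7 and 26.2 CPM in untreated libraries. TBI replicate 1 was the lowest of its group and still above both untreated libraries, with a log2 fold change of 1.36 ± 0.25 (edgeR adjusted p = 0.00498). Il6ra was not called without untreated replicate 2 (adjusted p = 0.0590), in a range of 5.40e-06 to 0.0590 over all alternatives.

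Il11ra1, the chain that binds interleukin-11, had 34.8, 24.7 and 27.4 CPM in TBI libraries, against 13.2 and 18.2 CPM in untreated libraries. The log2 fold change was 0.88 ± 0.25 (edgeR adjusted p = 0.0376), and the call was lost in 6 of 13 alternatives, with adjusted p between 0.0159 and 0.329. Its reads can be shared with a near-identical copy in the mouse genome, so its value is uncertain. Il12rb1, the chain shared by the receptors for interleukin-12 and interleukin-23, averaged 9.19 ± 2.81 CPM in TBI libraries and 7.35 ± 2.17 CPM in untreated libraries (0.32 ± 0.37, edgeR adjusted p = 0.572). Il12rb2, the signalling chain for interleukin-12, had 24.7, 37.2 and 50.02 CPM in TBI libraries and 36.0 and 43.9 CPM in untreated libraries. Its groups overlapped (-0.10 ± 0.29, edgeR adjusted p = 0.840), and the direction was the opposite without TBI replicate 1 (0.13) or untreated replicate 2 (0.05). It shares 1519 of its 3794 exon bases with Serbp1 on the opposite strand, so its counts are uncertain. Il23r had 3, 6 and 4 counts in TBI libraries and 1 and 4 in untreated libraries, and Il31ra had 20, 6 and 0 against 7 and 8, and neither was tested.

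Il3ra and Il5ra pair with the common beta chain. Il3ra, which binds interleukin-3 and is used as a marker of plasmacytoid dendritic cells in humans, had 16.6, 13.8 and 16.8 CPM in TBI libraries, against 7.03 and 7.21 CPM in untreated libraries. The groups did not overlap and the log2 fold change was 1.14 ± 0.26 (edgeR adjusted p = 0.0135). Il3ra was not called without untreated replicate 1 (adjusted p = 0.144) or untreated replicate 2 (0.137), in a range of 0.00440 to 0.144 over all alternatives. The plasmacytoid marker list had a summed level of 676 to 859 CPM in TBI libraries and 3682 to 3814 CPM in untreated libraries. Il5ra, which binds interleukin-5, had 12.9, 8.86 and 6.66 CPM in TBI libraries and 16.0 and 13.02 CPM in untreated libraries. All TBI libraries were below the untreated ones, with TBI replicate 1 nearest to them. The log2 fold change of -0.62 ± 0.32 did not pass (edgeR adjusted p = 0.206), and it passed without TBI replicate 1 (-0.90, adjusted p = 0.0332), in a range of 0.0332 to 0.655 over all alternatives.

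In the interleukin-10 and interleukin-20 family 1 of 3 tested members was higher. Il10rb, the chain shared by the receptors for interleukin-10, interleukin-22 and the lambda interferons, had 169, 215 and 218 CPM in TBI libraries, against 110.1 and 102 CPM in untreated libraries. The groups did not overlap and the log2 fold change was 0.92 ± 0.16 (edgeR adjusted p = 0.00401), with the call lost without untreated replicate 2 (adjusted p = 0.0657), in a range of 5.82e-06 to 0.0657 over all alternatives. Il10ra, the chain that binds interleukin-10, had 194, 223 and 264 CPM in TBI libraries and 198 and 203 CPM in untreated libraries. TBI replicate 1 lay below both untreated libraries and the others above, and the log2 fold change was 0.18 ± 0.16 (edgeR adjusted p = 0.453), with the opposite sign when libraries were scaled by size alone (-0.04). Per kilobase of exon, Il10ra stood at 1.25, 1.13 and 1.32 times Il10rb in TBI libraries and at 1.96 and 2.16 times in untreated libraries.

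The interleukin-20 receptor chains and the soluble interleukin-22 binding protein were near the limit of detection. Il20rb had 4, 14 and 24 counts in TBI libraries and 5 and 2 in untreated libraries (edgeR adjusted p = 0.179). Il20ra had 29 counts in TBI replicate 1, 0 in the other TBI libraries, and 0 and 4 in untreated libraries, so a single library held nearly all of its reads. Il22ra2 had 9, 13 and 0 counts in TBI libraries and 8 and 6 counts in untreated libraries. Neither Il20ra nor Il22ra2 was tested.

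Among the interleukin-17 receptors 1 of 4 tested members was lower, 0 were higher and the other 3 missed the threshold. Il17rb, the chain that binds interleukin-25, had 4.62, 4.56 and 4.57 CPM in TBI libraries, against 17.03 and 16.2 CPM in untreated libraries. This was the largest fall among the receptor genes, with replicates close together in both groups and a log2 fold change of -1.85 ± 0.26 (edgeR adjusted p = 0.00137). It was called in all 13 alternatives, with log2 fold changes between -2.08 and -1.82. Il17ra, the chain shared by the whole family, had 102, 131 and 132 CPM in TBI libraries and 163 and 156 CPM in untreated libraries. All TBI libraries were below the untreated ones, but the log2 fold change of -0.39 ± 0.15 did not pass (edgeR adjusted p = 0.111). It passed without TBI replicate 1 (-0.27, adjusted p = 0.0455) and with scaling by library size alone (-0.61, adjusted p = 0.0266), in a range of 0.0266 to 0.456 over all alternatives.

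Il17rc, which pairs with Il17ra to bind interleukins 17A and 17F, had 13, 14 and 18 counts in TBI libraries and 3 in each untreated library. The groups did not overlap, and its log2 fold change of 2.37 ± 0.79 was the nearest to the threshold among those that missed it (edgeR adjusted p = 0.0611). Il17re, the partner for interleukin-17C, had 26, 5 and 7 counts in TBI libraries and 10 and 4 in untreated libraries (edgeR adjusted p = 0.516). Il17rd had 6, 0 and 5 counts in TBI libraries and 3 and 2 in untreated libraries and was not tested. Exons of 11 receptor genes overlap another annotated gene in GENCODE vM21, and the strand setting of the counts is not known, so such counts are uncertain. By share of the exon bases, the largest overlaps after that of Il12rb2 were 728 of 2387 exon bases of Il2rg and 569 of 3808 exon bases of Il10rb, each with a predicted gene on the same strand, while Il17rb shared 141 of 3707 with Actr8.

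**Figure D4:**
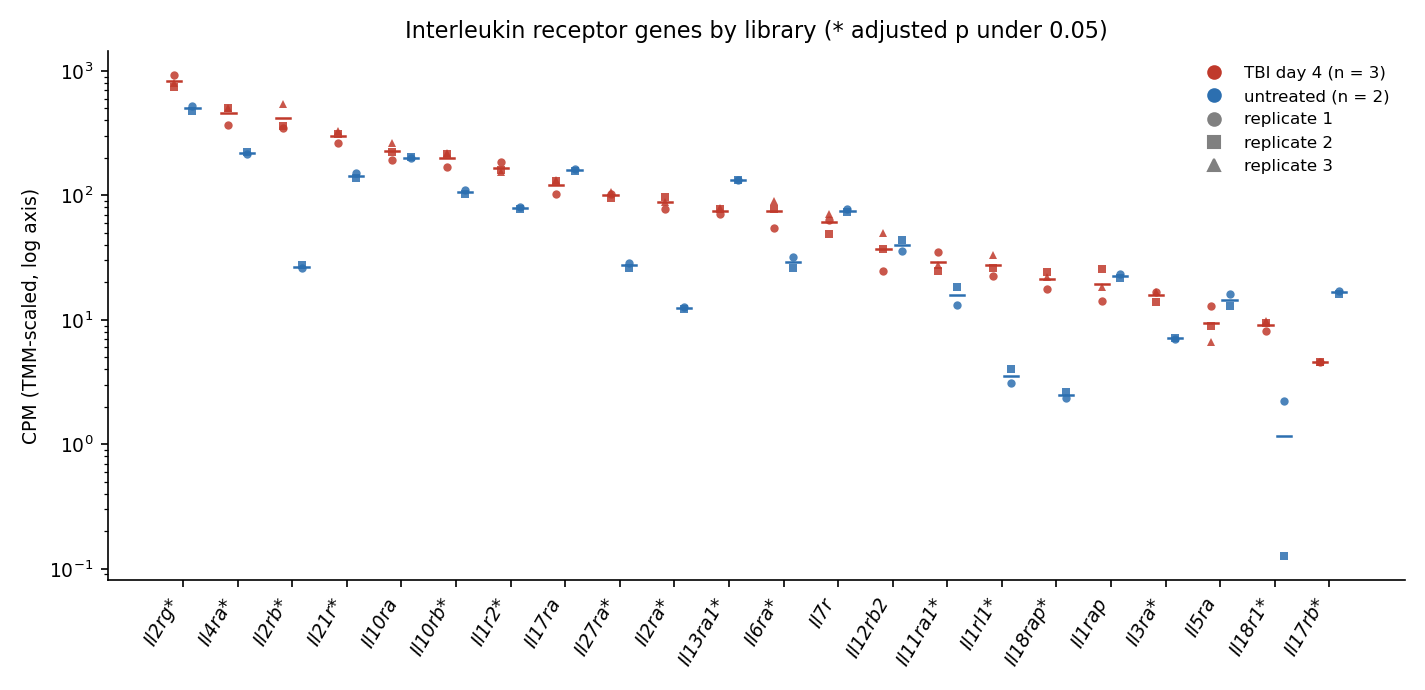
CPM (log axis) of the 22 interleukin receptor genes that passed the threshold or averaged at least 10 CPM, ordered by their mean in TBI libraries; red symbols are TBI libraries, blue symbols untreated libraries, shapes mark replicates, bars are group means and asterisks mark an adjusted p under 0.05. Il2rb stands at 346 to 546 CPM in TBI libraries and 26.04 to 27.6 CPM in untreated libraries, Il10ra overlaps between the groups, and Il17rb at the right is lower in all TBI libraries.

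Ligands, further receptor chains and signalling genes were counted beside the receptors. Of 21 tested interleukin and related ligand genes 10 were higher and 3 were lower, with a median log2 fold change of 1.29. Il6 had 974, 1094 and 793 counts in TBI libraries, against 98 and 83 counts in untreated libraries (3.50 ± 0.22, edgeR adjusted p = 1.96e-05), and Il10 had 34, 94 and 66 counts against 9 and 3 (3.48 ± 0.64, edgeR adjusted p = 0.00519). Il1b averaged 1964 ± 364 CPM in TBI libraries and 1295 ± 3.29 CPM in untreated libraries (0.60 ± 0.16, edgeR adjusted p = 0.0308). The 3 lower ligand genes were Il12b, the subunit shared by interleukin-12 and interleukin-23, with 27, 66 and 57 counts in TBI libraries against 959 and 407 in untreated libraries (-3.68 ± 0.41, edgeR adjusted p = 3.76e-04), Il12a (-2.17 ± 0.53) and Il16 (-0.71 ± 0.16). Also among the higher ligands, Il33 had 159, 6 and 37 counts in TBI libraries and 0 in both untreated libraries (edgeR adjusted p = 0.0331). Tslp had 67, 66 and 38 counts against 4 and 0 (4.85 ± 0.86, edgeR adjusted p = 0.00405). The ligands Il18, Il15 and Il7 did not pass, with log2 fold changes of -0.07 ± 0.23, 0.59 ± 0.33 and 1.30 ± 0.69.

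Of 14 receptor chains outside the naming rule 5 were higher and 2 were lower, with a median of -0.18. Csf2ra, the chain that binds the growth factor GM-CSF, averaged 329 ± 10.2 CPM in TBI libraries and 144 ± 0.340 CPM in untreated libraries (1.19 ± 0.12, edgeR adjusted p = 2.70e-04). Crlf2, the partner of Il7r, was higher by 1.13 ± 0.22 (edgeR adjusted p = 0.00789). Csf2rb2, the mouse beta chain used by interleukin-3 alone, averaged 29.3 ± 1.04 CPM in TBI libraries and 93.6 ± 5.46 CPM in untreated libraries (-1.68 ± 0.16, edgeR adjusted p = 1.44e-04), the opposite direction to its partner Il3ra. Its reads can be shared with the related gene Csf2rb, which had -0.41 ± 0.17 and did not pass (edgeR adjusted p = 0.128). The other lower chain was Ifnlr1, of the lambda interferon receptor (-6.14 ± 1.04, edgeR adjusted p = 0.00253). It had 0, 0 and 1 counts in TBI libraries and 34 in each untreated library. Il6st, the signalling partner of Il6ra, Il11ra1 and Il27ra, averaged 67.2 ± 26.4 CPM in TBI libraries and 123 ± 4.08 CPM in untreated libraries and did not pass (-0.87 ± 0.30, edgeR adjusted p = 0.0739).

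Of 24 signalling mediators 6 were higher and 6 were lower, with a median of 0.16. Socs3, an inhibitor induced by signals of the interleukin-6 and interleukin-10 receptors, was higher by 1.67 ± 0.15 (edgeR adjusted p = 1.09e-04). Jak3, the kinase bound to the common gamma chain, was higher by 0.85 ± 0.23 (edgeR adjusted p = 0.0292), Stat4, a factor downstream of interleukin-12, by 1.27 ± 0.27 (0.0100), and Myd88, the adaptor of the interleukin-1 receptor family, by 0.64 ± 0.14 (0.0109). Stat3 did not pass (0.34 ± 0.23, edgeR adjusted p = 0.324).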

How the data were processed

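Per the labels' protocols, libraries from sorted cells were made with a SMART-Seq v4 kit, which amplifies polyadenylated RNA by PCR and has no molecular identifiers, so depth gives counting error only. STAR 2.5.2a (mm10) and Subread featureCounts 1.6.0 produced the counts, per the submitters' processing notes. What the authors deposited are raw read counts per gene symbol, with 0 columns of other samples. The annotation, strand setting and treatment of multiply mapped reads are not given in the sources used here. Titles and tags give day 4 after irradiation, which was used. The treatment note also gives 4 days before harvest, although it names the thymi by another day.

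The test was edgeR's quasi-likelihood F-test (edgeR 4.0.16, R 4.3.3), with TMM scaling, filterByExpr at a minimum count of 10 and a minimum total of 15, group as the only term, and Benjamini-Hochberg adjustment over all 12046 genes at 0.05. CPM use TMM-scaled library sizes. Fold changes are TBI minus untreated on the log2 scale, ± SE, also where they stand in parentheses. Values per kilobase use merged exons of GENCODE vM21 (GRCm38), and promoter windows are RefSeq's. The fit was run on simulated counts with equal numbers of genes raised and lowered. That run does not check the scaling or the calls in these data. The genes, lists and tests were chosen with earlier results of these data known. Receptor genes named in full were those called or averaging at least 10 CPM, and 3 decoy or soluble receptors. Named ligands, partner chains and mediators came from a short fixed list, with exceptions. Those given although they did not pass, and the lower ligands, were chosen after their values were seen. So were Il33, Tslp and Ifnlr1, and the named lymphoid and granulocyte markers. Tried besides were scaling by DESeq2 size factors, by the upper quartile or by library size only, no filter or a stricter one (1 CPM in 3 libraries and 100 counts in all), the Wald test of DESeq2 1.42.0, limma-voom (limma 3.58.1), a 2-fold minimum, a replicate block, and omission of each library. Figures used matplotlib 3.10.9.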

Additional observations from a re-analysis of the deposited data

How the results depend on the processing

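Of 286 values of single receptor genes under the alternatives, 264 kept their direction and their side of the threshold, 16 lost the call, 3 gained it and 3 changed sign without being called on either side. The sign changed for Il10ra with library size alone (-0.041) and for Il12rb2 without TBI replicate 1 (0.13) or untreated replicate 2 (0.05), in a range of -0.36 to 0.13 over the libraries left out. Il2rb, Il2ra, Il27ra, Il18rap, Il1rl1, Il1r2, Il21r, Il4ra and Il17rb were called in all 13 alternatives. The order of rises changed, also at the top: without untreated replicate 1, Il18r1 (6.00) was above Il2rb (3.92). Il2ra was above Il1rl1 without TBI replicate 3 (2.82 and 2.77), without untreated replicate 1 (2.84 and 2.75) and with the replicate block (2.80 and 2.77). It was above Il18r1 without untreated replicate 2 (2.80 and 2.03). Library size alone moved the median of all tested genes to -0.23, and with it 2129 genes were lower, against 1179 with TMM, while 13 receptor genes were higher and 3 lower. That scaling put 36.8% of all called genes on the higher side, against 57.6% with TMM. A minimum of 2-fold left 743 genes lower, and 11 receptor genes higher and 1 lower (Il17rb). Leaving out 1 library gave 810 to 2148 genes higher and 423 to 1780 lower, and 8 to 14 receptor genes higher and 1 to 4 lower. With an untreated library omitted, the lone one is taken to have the spread of the TBI group. Replicate numbers were not taken to pair samples. Deviations of same-numbered libraries from their group means correlated at -0.0160 and -0.00989. The deviations of the 2 untreated libraries mirror each other, so these values cannot show that no pairing existed. With the replicate block 13 receptor genes were higher and 2 lower (1493 and 1284 of all genes), without Il11ra1. At this depth a gene under 3 counts per library, or 0.370 to 0.434 CPM, could not be told from 0.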
